A study of Mus musculus with 18 samples.

Results

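The livers of male Muta™Mouse given benzo(a)pyrene (BaP) at 75 mg/kg/day, the highest of 3 doses tested, were compared with those of mice given the vehicle alone, on 8 of the 18 miRNA arrays of the study. The 8 arrays were taken by their dose labels, 5 at 75 mg/kg and 3 at 0 mg/kg, with 1 array per animal. The other 10 arrays, 5 at 25 and 5 at 50 mg/kg/day, entered the statistical model and are named only where they place the highest dose. BaP is a polycyclic aromatic hydrocarbon that liver enzymes convert to metabolites that bind DNA. Muta™Mouse strain 40.6 is a transgenic strain in which mutations are scored in a lacZ gene of bacterial origin, and the controls carried this transgene too. All animals were 25 weeks old, per the labels. BaP in olive oil, or olive oil alone, was given by gavage for 28 days, and whole liver tissue was taken 3 days after the last dose. Other control animals of the study are not analysed here.

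A miRNA is a short RNA that guides the silencing machinery to messenger RNAs. It pairs mainly through its seed, the bases just inside its 5′ end, so that miRNAs with the same seed share many predicted targets. Several related genes can give the same mature miRNA, and a miRNA gene often lies next to others in a cluster or inside a longer host gene. In liver, miR-122 dominates the hepatocyte's miRNA pool, and the gene for miR-34a is a direct target of p53, the transcription factor activated by DNA damage.

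Of 576 miRNA names on the array (566 of mouse and 10 of a murine herpesvirus), 69 were bright enough to be tested, 68 of them mouse names. Mature sequences and positions come from RefSeq (GRCm38.p6), of which not every chromosome was used. Of the 68 mouse names, 62 were matched, and names left unmatched, such as miR-122, may still have a RefSeq entry. The sequences below belong to the miRNAs that passed the test at 75 mg/kg/day and to those that share, or nearly share, a seed with one of them or with each other. The seed (bases 2 to 8) is in capitals. The first group holds the 4 miRNAs past the threshold.
miR-34a: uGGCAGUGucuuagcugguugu
let-7c: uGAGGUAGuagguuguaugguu
miR-199a-3p: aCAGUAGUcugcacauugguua
miR-10a: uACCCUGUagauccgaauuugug
The second group shows family members with smaller differences, let-7b, let-7g and let-7f beside let-7c and miR-100 beside miR-10a. It also holds the pair miR-15b and miR-322, which share a seed.
let-7b: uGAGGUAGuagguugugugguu
let-7g: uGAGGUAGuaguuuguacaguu
let-7f: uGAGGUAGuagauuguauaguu
miR-100: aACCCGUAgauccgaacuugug
miR-15b: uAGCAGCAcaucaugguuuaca
miR-322: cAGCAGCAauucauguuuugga
All let-7 sequences shown carry the seed GAGGUAG, miR-15b and miR-322 carry AGCAGCA, and the seeds of miR-34a, miR-199a-3p, miR-10a and miR-100 each stand alone among those shown.

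The gene of miR-34a lies at chr4:150068473-150068494 on the plus strand, given as the span of the mature miRNA, and no other annotated gene of the RefSeq table spans it. Mature let-7c comes from 2 genes, at chr15:85706616-85706637, within the span of the noncoding gene Lncppara, and at chr16:77599672-77599693, both on the plus strand. Mature miR-199a-3p also comes from 2 genes, at chr1:162217883-162217904 within the spans of Dnm3 and Dnm3os, and at chr9:21496498-21496519 within that of Dnm2. The RefSeq sequence of miR-199b-3p is identical to that of miR-199a-3p, so the 2 cannot be told apart by sequence. The single gene of miR-10a lies at chr11:96317186-96317208 within the span of Hoxb3. The table gives spans only, so exon and intron were not told apart.

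At 75 mg/kg/day 1 miRNA was higher than in controls and 3 were lower at an FDR-adjusted P-value under 0.05 (limma), which is 5.80% of the 69 names tested. MiR-34a rose 4.19-fold on signals that keep their background, and 1 of its 2 probes was well above background on 0 of 3 controls, so the control level is in part background and the fold is not a measured ratio of RNA levels. Let-7c, miR-199a-3p and miR-10a fell by between 1.16-fold and 1.21-fold, and miR-34a was the only name past 1.5-fold. Of the 69 names, 66 differed by less than 1.2-fold. The median difference over all 69 names was -0.03 on the log2 scale, and 42 of the 69 lay below 0. All values are normalised log2 signals without background subtraction, unless another scale is named, which makes differences of dim probes smaller than those of the RNA. Each array held RNA from whole liver tissue, so fewer cells of a type and less RNA per cell cannot be told apart.

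The arrays lay on 3 slides, and slide accounted for 61.4% of the variance of the 69 names. Slide 1 held 1 control and 2 arrays at 75 mg/kg/day, slide 3 held 2 controls and 1 array at 75 mg/kg/day, and slide 2 held the other 2 treated arrays but no control. Slide was therefore a block in the model, and differences within slides 1 and 3 are given beside the main results. Between any 2 of the 8 arrays, the 69 log2 signals correlated across miRNAs between 0.937 and 0.996 (names are not independent replicates). The share of spots well above background lay between 9.15% and 12.4%, no spot was saturated, and between 80 and 114 mouse names per array were called detected by the scanner software.

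MiR-34a gave log2 signals of 5.64, 5.89 and 6.23 in control replicates 1 to 3. At 75 mg/kg/day it gave 7.89, 8.03, 7.60, 7.67 and 7.89 in replicates 1 to 5. All 5 treated arrays lay above all 3 controls, with means of 7.82 ± 0.175 (SD, n = 5) and 5.92 ± 0.295 (SD, n = 3). The fitted difference was 2.07 ± 0.182 (SE; 95% confidence interval 1.68 to 2.46), with a limma adjusted P of 5.4e-07. An exact two-sided permutation test over the 56 splits of the 8 arrays gave P = 0.0179, the smallest value possible. An exact permutation test with shuffles confined to slides allows only 9 arrangements and gave P = 0.111, again the smallest possible.

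The difference was 2.32 on slide 1 and 1.83 on slide 3. All 3 treated arrays on those slides lay above every control of their own slide. The 2 treated arrays of slide 2, which had no control beside them, gave the lowest values of their group but still lay above every control.

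MiR-34a was dim in controls, well above background on 2 of 3 control arrays and on all 5 at 75 mg/kg/day. Its brighter probe rose from 5.99 to 8.32, a fitted difference of 2.52 ± 0.195 (SE) on the log2 scale. Its dimmer probe passed the background flag on 5 of 5 treated arrays but on 0 of 3 controls, and was at least 2.59-fold higher at 75 mg/kg/day. Both probes passed the filter on dim probes through dosed groups and not through the controls. The place of miR-34a above 0 is therefore in part selected, and the flags of the dimmer probe give no separate support. On a linear scale, the total gene signal of the scanner software after its own background subtraction, taken here without scaling between arrays, the controls read 16.4, 12.1 and 7.13. The treated arrays read 226, 264, 188, 209 and 318 on that scale. The groups stood further apart on this scale than on the log2 signal without subtraction, and the fitted log2 difference after scaling was 5.09.

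The other miR-34 names, the 2 arms of miR-34b with miR-34c and miR-34c*, share the miR-34 family with miR-34a but come from another locus. They were well above background on 0 of the 8 arrays, so only miR-34a of this family could be tested.

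**Figure D1:**
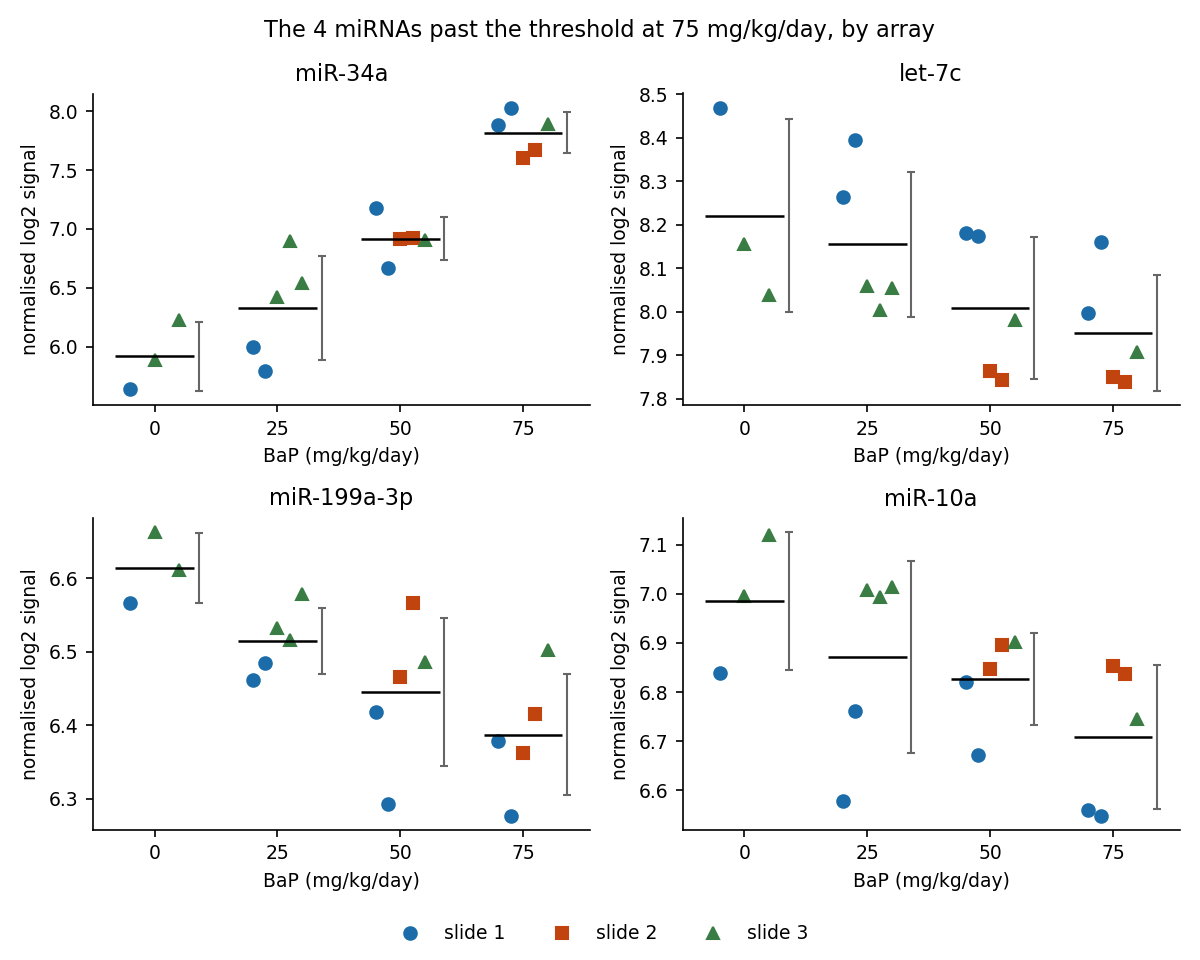
Normalised log2 signal (y axis) of miR-34a, let-7c, miR-199a-3p and miR-10a on each of the 18 arrays by BaP dose in mg/kg/day (x axis). Symbols mark the slide, horizontal lines the group mean and bars the SD (n = 3 at 0 and n = 5 at each other dose); the 5 arrays at 75 mg/kg/day lie above all controls for miR-34a and below all controls for miR-199a-3p, while they overlap for let-7c and miR-10a, and y axes do not start at 0.

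Let-7c belongs to a large conserved family known for holding back growth and developmental genes. It gave 8.47, 8.16 and 8.04 in controls and 8.00, 8.16, 7.85, 7.84 and 7.91 at 75 mg/kg/day. The groups overlapped, since treated replicate 2 lay as high as control replicate 2, which was on another slide. The fitted difference was -0.27 ± 0.0542 (SE), or 1.21-fold lower, with a limma adjusted P of 0.00533. It was -0.39 on slide 1 and -0.19 on slide 3, and all 3 treated arrays lay below every control of their own slide. The exact permutation test over the 8 arrays, which takes no account of slide, gave P = 0.0714. Both let-7c probes were lower, by -0.27 each.

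MiR-199a-3p is best known from stellate cells and other mesenchymal cells of the liver. It gave 6.57, 6.66 and 6.61 in controls and 6.38, 6.28, 6.36, 6.42 and 6.50 at 75 mg/kg/day. Every treated array lay below every control. The fitted difference was -0.22 ± 0.0478 (SE), with a limma adjusted P of 0.00931, and the exact permutation test gave P = 0.0179. The difference was -0.24 on slide 1 and -0.13 on slide 3.

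MiR-10a is encoded within the Hoxb gene cluster. It gave 6.84, 7.00 and 7.12 in controls and 6.56, 6.55, 6.85, 6.84 and 6.75 at 75 mg/kg/day. The groups overlapped where slide 2 held a treated array as high as the control of slide 1. The fitted difference was -0.25 ± 0.0602 (SE), with a limma adjusted P of 0.0122, while the exact permutation test without slide gave P = 0.0536. Only 1 of its 2 probes on the array was kept, so the call rests on that probe. With no filter on dim probes, miR-10a differed by -0.19 ± 0.0372 (SE; limma adjusted P = 0.0144). The difference was -0.28 on slide 1 and -0.31 on slide 3, with all 3 treated arrays below the controls of their slide.

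These 3 lower calls depended on the slide term, on 1 control, on the scaling and on the arrays fitted. With only the 8 arrays, let-7c (limma adjusted P = 0.0629) and miR-199a-3p (0.0742) did not pass, while miR-10a did (0.0112). With the processed signal of the scanner software let-7c, miR-199a-3p and miR-10a had adjusted P-values of 0.253, 0.253 and 0.132. With quantile normalisation miR-199a-3p did not pass (0.109). Without 1 control or the slide term, the differences stayed of similar size. Without control replicate 1, which had slide 1 to itself among controls, let-7c differed by -0.21, miR-199a-3p by -0.20 and miR-10a by -0.24, each with an adjusted P of 0.107 (limma), and only miR-34a passed. Without the slide term in the model they differed by -0.27, -0.23 and -0.28 in the same order, with adjusted P-values of 0.185, 0.0612 and 0.141, and only miR-34a passed as well. The count of 4 rose to 7 without control replicate 3, to 9 without replicate 5 at 75 mg/kg/day and to 9 without replicate 1 at 25 mg/kg/day, miR-34a and the same 3 lower miRNAs being among them each time. With array medians centred in place of the loess, the 3 differed by -0.61, -0.35 and -0.47, each larger in size than after the loess. Their standard errors also grew, to 0.397, 0.183 and 0.208, the adjusted P was 0.627 for each, and the median of all names was -0.25. Under the scaling by total gene signal, let-7c differed by 0.0031 rather than falling, and the median of all names moved to 0.21. Relative to the median of all names, the 3 miRNAs lay below it under all 7 scalings compared. Let-7c lay between -0.36 and -0.20, miR-199a-3p between -0.55 and -0.10 and miR-10a between -0.46 and -0.15. The 3 were chosen by the fit under 1 of these scalings, and all 7 use the same arrays. Their place below the median is therefore largely built in and gives no separate support. Names not called, such as let-7b, let-7g, miR-26b and miR-148a, also lay below it under all 7.

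The list of 8 mesenchymal and stellate cell miRNAs held both miR-199a-3p and miR-10a, the only 2 of it that were tested. Their summed linear signal, which keeps its background, ran from 209 to 237 in controls and from 171 to 200 at 75 mg/kg/day. Both had already been called lower, so the sum restates those calls and is no separate measure of a cell type. The other 6, among them the markers miR-214, miR-143 and miR-145, were well above background on 0 of the 8 arrays. The part of cell composition in these 2 differences was not tested.

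Another 14 names had an unadjusted P under 0.05 without passing the adjusted threshold. This brings the number under that looser limit to 18 of 69 (26.1%), 6 higher and 12 lower. Since 26.1% of all names met it, it is used here only to choose what to describe. The fit that chose these 18 draws on the differences within slides 1 and 3. Agreement between the slides is therefore largely built in for them and gives no separate support. All 18 differed in the same direction on slides 1 and 3. Of all 69 names, 46 did so, 30 lower and 16 higher on both slides. Across the 68 names other than miR-34a, the differences on the 2 slides correlated with r = 0.44 (rho = 0.49). The slides hold different animals and controls but were normalised together, and names are not independent replicates.

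**Figure D2:**
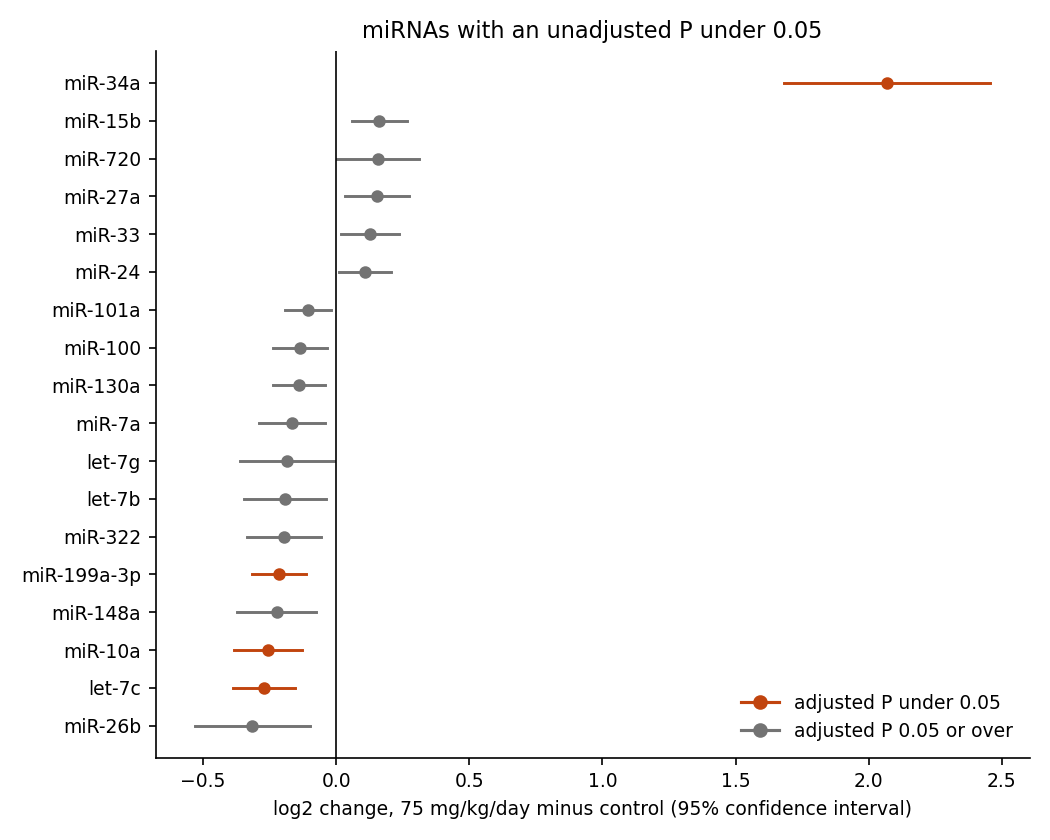
Fitted log2 difference between 75 mg/kg/day and control (x axis) for the 18 names with an unadjusted P under 0.05 (y axis), with 95% confidence intervals from limma. The interval of miR-34a runs from 1.68 to 2.46 and stands apart from the other 17 names, whose differences lie between -0.31 and 0.16.

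**Figure D3:**
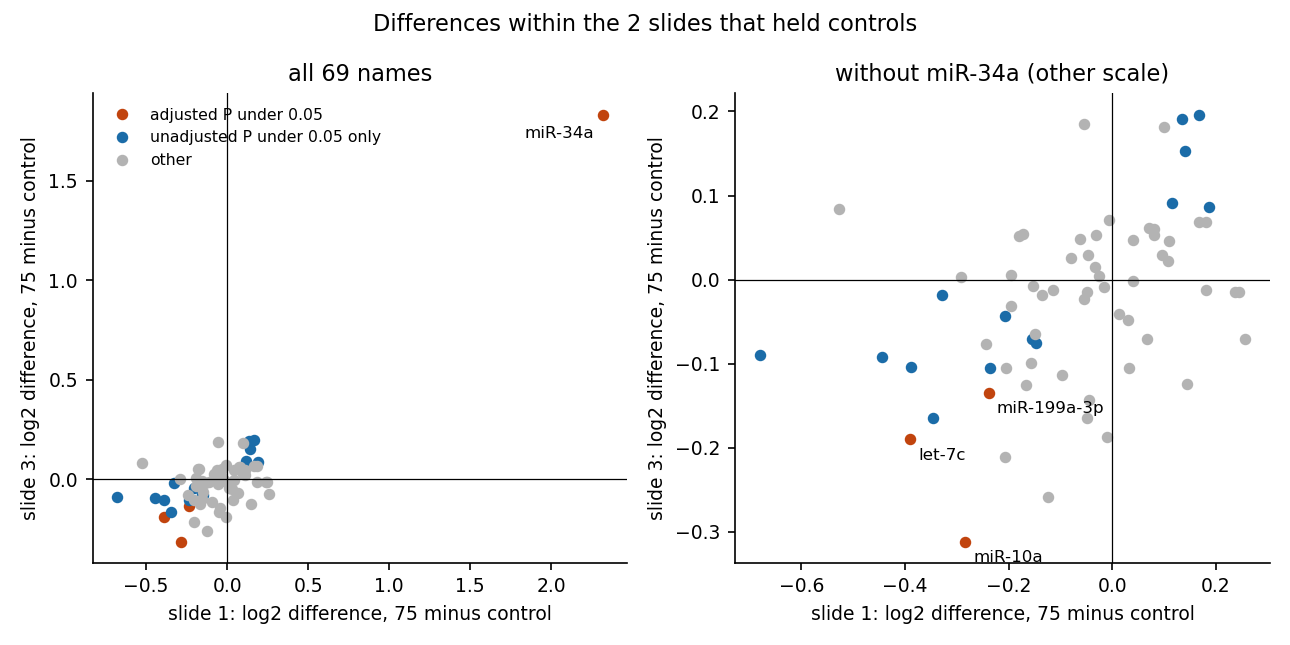
Log2 difference between 75 mg/kg/day and control within slide 1 (x axis, 2 treated arrays and 1 control) and within slide 3 (y axis, 1 treated array and 2 controls), 1 point per miRNA name, for all 69 names at left and without miR-34a on an expanded scale at right. The coloured points, which have an unadjusted P under 0.05, lie at the lower left and the upper right of the plots. They were chosen by a fit to these same arrays, so this placing is largely built in.

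Among the let-7 family, 9 of 9 names on the array were tested, 1 was called lower and 8 of 9 lay below 0. The family median was -0.10 against -0.03 over all 69 names. The 23 brightest names, which include let-7a, let-7b, let-7c, let-7d, let-7f and let-7g, also had a median of -0.10. As these members are part of that set, its median is partly their own. Whether the family differs from other names of similar brightness was not tested. The family median lay below that of all names under all 7 scalings, by 0.02 to 0.17, but was 0.19 above 0 under the total gene signal. Let-7b differs from let-7c at 1 of 22 positions, and 1 of the let-7c genes lies beside the let-7b gene on chromosome 15. Let-7b gave 8.47, 8.63 and 8.61 in controls. At 75 mg/kg/day it gave 8.03, 8.22, 8.34, 8.34 and 8.45. No treated array reached a control, and the fitted difference was -0.19 ± 0.0728 (SE; limma adjusted P = 0.0926).

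Let-7g gave 8.96, 8.68 and 8.54 in controls and between 8.50 and 8.54 on the 5 treated arrays, which were closely bunched. Its fitted difference was -0.19 (adjusted P = 0.162). It was -0.44 on slide 1 and -0.09 on slide 3, so that the control of slide 1 carried most of it. The other family members differed by -0.15 (let-7e), -0.10 (let-7d and let-7a), -0.08 (let-7i), -0.01 (miR-98) and 0.01 (let-7f). Let-7a differs from let-7c at 1 of 22 positions and let-7f at 2. Whether the probes of the array tell such near-identical sequences apart was not tested.

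The second let-7c gene, on chromosome 16, lies within 10 kb of the gene for miR-99a, which differed by -0.03 (adjusted P = 0.732). The members of the miR-10, miR-99, miR-100 and miR-125 family that were tested numbered 4, and all 4 lay below 0, with a median of -0.12. Only miR-10a of these was called. MiR-100, whose seed is not that of miR-10a, gave 6.31, 6.25 and 6.22 in controls and between 6.10 and 6.19 at 75 mg/kg/day. These groups did not overlap, and the fitted difference was -0.14 (adjusted P = 0.0744), but only 2 of 5 treated arrays, against 3 of 3 controls, were well above background. MiR-125b-5p differed by -0.11 (adjusted P = 0.225).

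MiR-26a and miR-26b share the seed UCAAGUA, and their median was -0.23. MiR-26b, whose gene lies within the span of Ctdsp1, had the largest negative value of all 69 names, -0.31 ± 0.101 (SE), with an adjusted P of 0.0669. It gave 8.30, 7.39 and 7.40 in controls and 7.57, 7.66, 7.29, 7.25 and 7.31 at 75 mg/kg/day. The control of slide 1 stood far above the others, and the difference was -0.68 on slide 1 against -0.09 on slide 3. MiR-26a differed by -0.15 (adjusted P = 0.42).

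The miR-15 and miR-16 family, which shares the seed AGCAGCA and is known for restraining cyclins and the survival factor Bcl2, did not differ in 1 direction. Of 6 tested members, 2 lay above 0 and 4 below, with a median of -0.04 and none called. MiR-15b gave 6.68, 7.13 and 7.17 in controls and 6.88, 6.81, 7.30, 7.19 and 7.35 at 75 mg/kg/day. Its values overlapped between groups but were higher by 0.17 on slide 1 and by 0.20 on slide 3, and the fitted difference was 0.16 ± 0.0486 (SE; adjusted P = 0.061). MiR-322 differed by -0.20 (adjusted P = 0.0669), and 2 of 5 treated arrays and 3 of 3 controls were well above background for it. It passed the filter on dim probes only through the controls, so its place below 0 is in part selected. MiR-16, which lies within 10 kb of miR-15b on chromosome 3 and of miR-15a on chromosome 14, differed by -0.08, and miR-15a by -0.13.

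The miR-23, miR-27 and miR-24 clusters were the family whose tested members all lay above 0, 5 of 5, with a median of 0.10 and none called. The median fell below 0 with array medians centred and in the authors' table, but lay above that of all names under all 7 scalings. MiR-27a, which is known for acting on lipid metabolism genes, gave 6.81, 7.03 and 7.06 in controls and 7.03, 6.85, 7.16, 7.19 and 7.24 at 75 mg/kg/day. The fitted difference was 0.15 (adjusted P = 0.0926), with overlapping groups. MiR-24 gave 7.08, 7.21 and 7.21 in controls and between 7.20 and 7.33 at 75 mg/kg/day, and differed by 0.11 (adjusted P = 0.128). MiR-23a, miR-27a and miR-24 lie in 1 cluster on chromosome 8 and differed by 0.10, 0.15 and 0.11. MiR-27b, which shares the cluster on chromosome 13 with a second miR-24 gene, differed by 0.03.

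**Figure D4:**
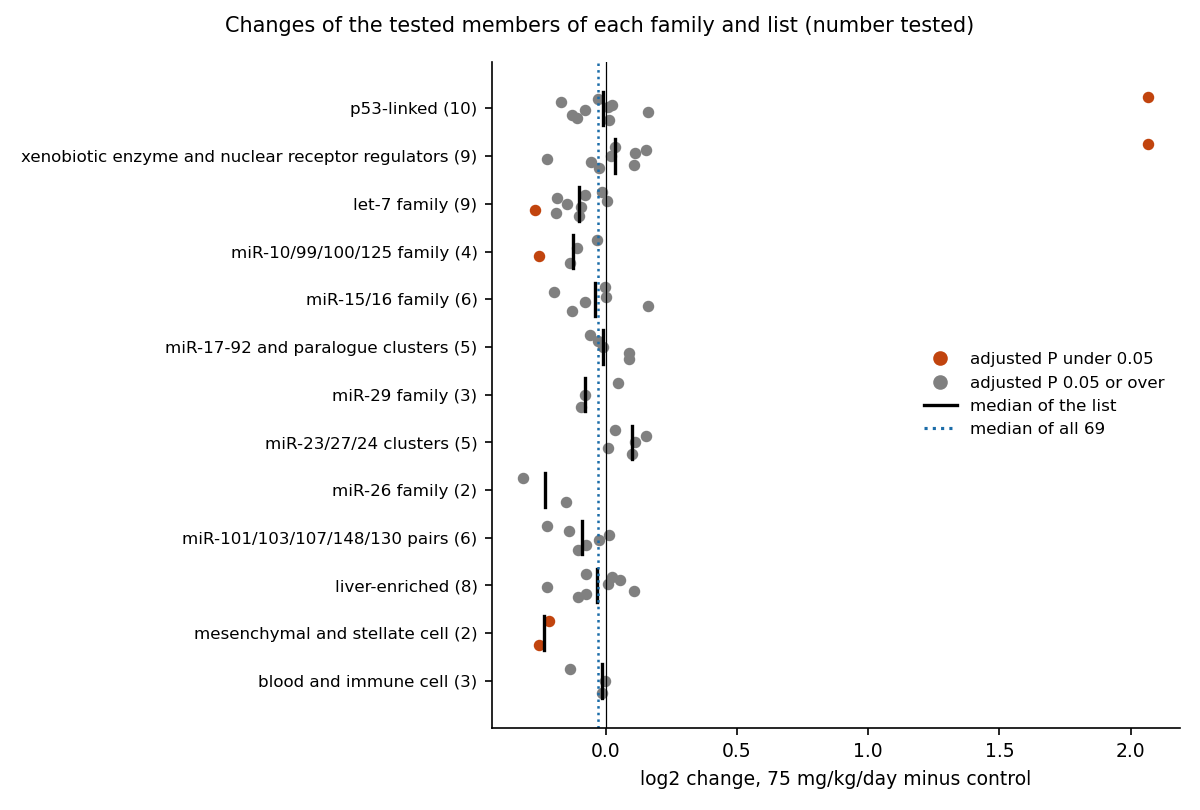
Fitted log2 differences between 75 mg/kg/day and control (x axis) of the tested members of each family or list with at least 2 of them (y axis, number tested in brackets), 1 point per miRNA. Black bars mark the median of each list and the dotted line that of all 69 names, at -0.03; miR-34a, at 2.07, is in both the p53-linked and the xenobiotic list, and the other points lie within -0.31 and 0.16.

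By position, 16 groups of the matched miRNAs had genes within 10 kb of each other on 1 strand. In 5 of these groups every member lay below 0, in 3 every member lay above 0, and in 8 the members lay on both sides. Over all names 42 of 69 lay below 0, and what split unrelated names would give was not tested. Some miRNAs, such as let-7c and miR-16, sit in more than 1 group with the same value. Of the miRNAs under the unadjusted limit with a RefSeq match, the 5 higher ones had a median G+C content of 50% and the 12 lower ones 40.9%, against 42.9% over the 62 matched names. The 12 lower miRNAs carried 10 different seeds and the 5 higher ones 5.

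Of the p53-linked list, which holds miRNAs tied to p53 in general knowledge, 24 names were on the array and 10 were tested. Only miR-34a was called, 5 of the 10 lay above 0 and 5 below, and the median was -0.01. Another 13 names of the list were well above background on 0 of the 8 arrays. MiR-22, a p53-linked miRNA and the third brightest of all names, gave 11.06, 10.54 and 10.48 in controls and between 10.40 and 10.67 at 75 mg/kg/day. It differed by -0.17 (adjusted P = 0.329), with -0.53 on slide 1 and 0.08 on slide 3. MiR-192 and miR-194, also on that list, differed by 0.01 and 0.02.

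Of the list of miRNAs known to act on xenobiotic enzymes and nuclear receptors, 9 were tested, 1 was called (miR-34a) and 6 lay above 0, with a median of 0.03. It holds miR-148a, a liver miRNA known to act on the pregnane X receptor. MiR-148a gave 8.68, 8.59 and 8.69 in controls and 8.26, 8.33, 8.57, 8.55 and 8.53 at 75 mg/kg/day. No treated array reached a control, and the fitted difference was -0.22 ± 0.0699 (SE; adjusted P = 0.0669), with -0.39 on slide 1 and -0.10 on slide 3. MiR-130a, which is on another of the family lists, gave 7.82, 7.83 and 7.83 in controls and between 7.61 and 7.76 at 75 mg/kg/day. These groups did not overlap either, and the difference was -0.14 (adjusted P = 0.0669). MiR-101a differed by -0.11 (adjusted P = 0.0926).

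MiR-122, the main hepatocyte miRNA, was the brightest name on the 8 arrays. It gave 13.48, 13.51 and 13.52 in controls and 13.45, 13.84, 13.57, 13.59 and 13.58 at 75 mg/kg/day, and differed by 0.11 ± 0.101 (SE; adjusted P = 0.5). Of the 8 tested members of the liver-enriched list, 0 were called, 4 lay above 0 and 4 below, and the median was -0.03. MiR-33, which lies within the Srebf2 gene and acts on cholesterol export, gave 6.30, 6.18 and 6.31 in controls and between 6.34 and 6.45 at 75 mg/kg/day. Its groups did not overlap and it differed by 0.13 (adjusted P = 0.112). MiR-7a differed by -0.17 (adjusted P = 0.0744), with -0.33 on slide 1 and -0.02 on slide 3.

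The array name miR-720, which stands for a tRNA-derived fragment, was second in brightness and had no RefSeq match here. It gave 11.20, 10.95 and 11.19 in controls and between 11.22 and 11.53 at 75 mg/kg/day, and differed by 0.16 (adjusted P = 0.184). Altogether the 2 groups did not overlap for 9 of the 69 names (13.0%), 3 higher and 6 lower at 75 mg/kg/day. Apart from those above, this set held let-7d, which differed by -0.10 (adjusted P = 0.42).

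Names were also compared by presence alone. Of the 566 mouse names, 454 were well above background on 0 of the 8 arrays, 57 on all 8 and 55 on some of them. None was well above background on at least 4 of 5 treated arrays and 0 of 3 controls, and none was lost in the opposite way. The marker lists for muscle (5 names), neurons (6), pancreas (4) and biliary and other epithelium (8) were well above background on 0 of the 8 arrays. The red cell miRNAs miR-451 and miR-144 were present. MiR-451 gave 9.40, 8.95 and 8.80 in controls and 9.96, 9.35, 8.61, 7.74 and 8.80 at 75 mg/kg/day, the widest spread among the treated arrays of any miRNA named here. It differed by -0.14 ± 0.305 (SE; adjusted P = 0.895). The summed linear signal of the 3 tested blood and immune cell miRNAs ran from 600 to 863 in controls and from 358 to 1200 at 75 mg/kg/day, and its part in the other differences was not tested.

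The highest dose was last set against 50 mg/kg/day, a comparison that uses no control and in which slide 2 holds 2 arrays of each dose. Only miR-34a differed at an adjusted P under 0.05 (limma), 1 of 69 names (1.45%). It lay between 6.67 and 7.18 at 50 and between 7.60 and 8.03 at 75 mg/kg/day. The groups did not overlap, and the fitted difference was 0.90 ± 0.144 (SE), with an adjusted P of 0.0011. On slide 2 alone it was 0.71. MiR-10a differed by -0.12 between the 2 doses (adjusted P = 0.884), let-7c by -0.06 and miR-199a-3p by -0.06 (adjusted P = 0.936 for each).

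Against the same 3 controls, and so not independently of each other, the 3 doses gave these differences. MiR-34a differed by 0.43, 1.17 and 2.07 at 25, 50 and 75 mg/kg/day. Let-7c differed by -0.08, -0.21 and -0.27, miR-199a-3p by -0.09, -0.16 and -0.22, and miR-10a by -0.10, -0.14 and -0.25. At 25 mg/kg/day 0 names passed the adjusted threshold (limma), with 7 under an unadjusted P of 0.05, and at 50 mg/kg/day 2 passed, miR-34a higher and let-7c lower.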

How the data were processed

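Small-RNA-enriched liver RNA was labelled with cyanine 3 and hybridised by the authors to 1-colour Agilent mouse miRNA arrays, read, per the study's methods, with Feature Extraction 10.7.3.1. The deposited files of single arrays hold spot intensities on a linear scale that were not normalised between arrays. A further table by the authors gives 1 value per name, read here as log2 signal because each column correlated with the log2 medians of its own array between 0.990 and 1.000 over names, and used only as an alternative (the column medians lay between 5.74 and 5.76, and their centring is unknown). The log2 median signal of 11540 non-control spots was normalised by cyclic loess (limma method "fast"), after which spots marked as outliers were removed, between 1.91% and 3.52% on the 8 arrays. The median over spots was taken per probe and the mean over present probes per name. From the study's methods came the unsubtracted signal, the loess, the median, the slide block and the threshold. A probe was kept when at least 0.5 of its spots were well above background on at least 0.8 of the arrays of any dose group, which left 112 of 1712 probes. On the whole array, 6 probes were named differently between files, and the name in the first file was used.

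Models were fitted with limma 3.58.1 (lmFit, eBayes) under R 4.3.3, over all 18 arrays, with dose group and slide as terms. Tests were two-sided, with Benjamini-Hochberg adjustment over 69 names. Replicate numbers follow listing order and only name arrays, and the number of arrays limits the precision. "At least N-fold" sets the treated mean against a control mean in which each array enters with its lowest signal well above background, or with the probe's signal where that was higher. The script was tested on simulated data. Named miRNAs were miR-34a and its family, miR-122, the 5 brightest names, every name with an unadjusted P under 0.05 and the 2 of largest change in each list. The comparison, its members and the lists were chosen with earlier results of these data known. Array names were matched to mature arms by a table of names. The alternatives were other scalings, backgrounds, filters, probe summaries, slide terms, array sets, shuffled residuals (100 shuffles), each array left out in turn and, added after seeing the data, the number of detected names as a covariate.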

Additional observations from a re-analysis of the deposited data

Results flagged for a closer look

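Among the 29 names described, 2 had an array at 75 mg/kg/day that stood apart from the other 4, by a gap over 0.71 of the group's whole range. Chance gives about 1 such group in 20. For miR-24 it was replicate 2, at 7.20 with the other 4 between 7.29 and 7.33 (a gap of 0.714 of the range), and without it the difference was 0.13 (limma adjusted P = 0.101). For miR-22 it was replicate 1, at 10.4 with the other 4 between 10.59 and 10.67 (0.733 of the range), and without it the difference was -0.09 (adjusted P = 0.636). Both arrays lay on slide 1.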

How the results depend on the processing

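MiR-34a kept its direction and its call in all 18 alternatives that gave it a value (1.84 to 5.09 on the log2 scale) and with each array left out (1.98 to 2.19). Its adjusted P ran from 6.5e-09 (limma) to 0.0100, the latter from the shuffled residuals, where few shuffles limit how small it can be. MiR-34a had no value when probes had to be present on all arrays. Let-7c was called in 14 of 19 alternatives, miR-199a-3p in 13 and miR-10a in 15, and each in 17 of the 18 fits with 1 array left out. The count of 4 miRNAs became 1 with array medians centred, 10 with the total gene signal (10 higher), 9 without a filter on dim probes (5 higher, 4 lower), 1 without the slide term, 2 with only the 8 arrays, and 1 (without control replicate 1) to 9 with 1 array left out. With the processed signal it was 3, all higher. With each probe tested, 8 probes of 5 miRNAs passed. The median over all names moved to -0.25 with array medians centred, 0.21 with the total gene signal and -0.11 in the authors' table. The count of 1 between 75 and 50 mg/kg/day became 0 with the processed signal, the total gene signal and probes present on all arrays, 2 with the added covariate, and 2 probes, both of miR-34a, with each probe tested.

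Signs turned as follows. With array medians centred: let-7f -0.42, miR-106b -0.042, miR-122 -0.46, miR-15b -0.085, miR-19b -0.22, miR-24 -0.16, miR-27a -0.10 and miR-720 -0.34. With the total gene signal: let-7a 0.21, let-7b 0.073, let-7c 0.0031, let-7g 0.11, miR-101a 0.13, miR-130a 0.15, miR-148a 0.063, miR-22 0.058, miR-29a 0.21, miR-29b 0.24 and miR-451 0.11. With the processed signal: let-7a 0.012, miR-29a 0.0080 and miR-29b 0.061. With quantile normalisation: miR-122 -0.011 and miR-29b 0.032. In the authors' table, whichever names were tested: let-7f -0.11, miR-106b -9.5e-05, miR-19b -0.10 and miR-27a -0.044. With the brightest probe or each probe tested miR-144 was 0.00047, without the slide term 0.015, and without a filter miR-19b was -0.018. With only the 8 arrays: let-7f -0.064, miR-144 0.032 and miR-451 0.093. With only slides that held controls: let-7f -0.0077, miR-144 0.074 and miR-451 0.12. Let-7f was -0.00060 with slide as a random block and -0.089 with the added covariate. With 1 array left out, let-7f ran from -0.046 to 0.12, miR-144 from -0.12 to 0.069 and miR-22 from -0.25 to 0.0076. The cause was not tested. None of the values whose sign turned passed the adjusted threshold after turning.

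With 3 controls on 2 slides, and 1 of them alone on slide 1, small differences rest on few arrays. Dim names have differences shrunk by the unsubtracted background, and 454 mouse names were well above background on none of these 8 arrays. No paired analysis was possible because the labels number no replicates.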

Other observations

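Over the 18 arrays, the spread left after dose and slide had a median SD of 0.0807 over the 69 names, and was highest for miR-1224 (0.446), miR-451 (0.429) and miR-34a (0.254), names chosen after their values were seen. Split by mean signal over the 8 arrays into 3 sets of 23 names, the median difference at 75 mg/kg/day was -0.0038 in the dimmest, -0.03 in the middle and -0.10 in the brightest set. Of the 41 names with more than 1 kept probe, 31 had probes that all differed in the same direction, and the gap between probes of a name had a median of 0.0513 and reached 0.893 for miR-34a. The 1 herpesvirus name that passed the filter on dim probes differed by 0.14 (limma adjusted P = 0.228). Its probes passed through dosed groups and not through the controls, so its place above 0 is in part selected.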
